A study of Mus musculus with 116 samples.

Results

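The HoxB cluster genes are the Hox genes that lie side by side on mouse chromosome 11. The 10 members, Hoxb1 to Hoxb9 and Hoxb13, were chosen by name out of 53379 gene identifiers in the count tables, and each was read in all 92 libraries that had at least 1000000 uniquely aligned reads making up at least 60% of all reads. The libraries hold RNA of fluorescent cells sorted from mouse cortex, sequenced in bulk with Smart-Seq2. Mosaic Analysis with Double Markers (MADM) on chromosome 7 colors single cells while it changes their genotype, and Emx1-Cre, which is active in cortical radial glia progenitors and their progeny, drives the recombination in every group.

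Control-MADM (MADM7-GT/TG;Emx1-cre) carries no Eed mutation. In Eed-MADM (MADM7-GT/TG,Eed;Emx1-cre) the tissue is heterozygous and the color tells the genotype of a sparse cell: Eed-/- if green, Eed+/- if yellow and Eed+/+ if red. In cKO-Eed-MADM (MADM7-GT,Eed/TG,Eed;Emx1-cre) all recombined cells are Eed-/-, whatever their color. Green cells of the mosaic carry 2 paternal copies of chromosome 7 and red cells 2 maternal copies, so green and red differ in this too, in controls as well. Cortices of several mice were pooled for a sample. Tissue came from 3 embryonic ages (E12.5, E13.5, E16.5) and from the day of birth, called P0. The E12.5 cells were sorted into lysis buffer where those of the later ages went into RNA extraction buffer, so age and collection cannot be told apart at E12.5. Green control-MADM libraries numbered 5, 2, 3 and 5 from the youngest age to the oldest, those of Eed-MADM 8, 2, 5 and 9, and cKO-Eed-MADM had 4 at each age. A further 20 yellow and 17 red libraries were used.

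Hox genes encode homeodomain transcription factors that give cells their position along the body axis. In the embryo they come on in the order in which they lie, from Hoxb1 at one end, first read in the hindbrain, toward Hoxb13 at the other, which is read latest and at the tail. The forebrain, which includes the cortex, lies in front of the region where Hox genes are normally read. Polycomb repressive complex 2 (PRC2), of which Eed is a core subunit, places trimethylation on lysine 27 of histone H3, and Hox clusters are among its best known targets.

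The cluster spans chr11:96194316-96368256 on GRCm38, which is 173.941 kb, with every member on the plus strand. The order by start along the chromosome is Hoxb13, Hoxb9, Hoxb8, Hoxb7, Hoxb6, Hoxb5, Hoxb4, Hoxb3, Hoxb2 and Hoxb1. Hoxb13 stands alone, 171.436 kb from the Hoxb1 start, while Hoxb9 begins at 94.295 kb, Hoxb8 at 83.847 kb, Hoxb7 at 79.129 kb, Hoxb6 at 73.276 kb, Hoxb5 at 62.416 kb, Hoxb4 at 47.485 kb, Hoxb3 at 42.426 kb and Hoxb2 at 15.227 kb. Reads were counted without regard to strand, and some exon bases are shared with an antisense gene: 52.9% of those of Hoxb3 and 27.3% of those of Hoxb2 overlap Hoxb3os, and 3.59% of those of Hoxb5 overlap Hoxb5os. Reads that touch these shared bases were counted for neither gene, so the levels of these 3 members leave out part of their reads. The other 7 share no exon base with another gene.

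A promoter sequence of RefSeq (GRCm38.p6) was at hand for only 3 of the 10 members, Hoxb8, Hoxb4 and Hoxb1, and these are shown for that reason. Hoxb13 is not among them. Capitals mark matches on either strand to TGATNNAT, a site of Hox and Pbx pairs, or to TCGTAAA, a site of group 13 Hox proteins. All are from the plus strand, 5′ to 3′, and end at the base before the transcription start.
Hoxb8 (chr11:96281655-96281904): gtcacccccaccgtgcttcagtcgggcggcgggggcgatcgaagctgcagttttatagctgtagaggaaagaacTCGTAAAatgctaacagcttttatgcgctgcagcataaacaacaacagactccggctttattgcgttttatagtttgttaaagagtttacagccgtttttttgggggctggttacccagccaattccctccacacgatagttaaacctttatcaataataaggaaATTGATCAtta
Hoxb4 (chr11:96318017-96318266): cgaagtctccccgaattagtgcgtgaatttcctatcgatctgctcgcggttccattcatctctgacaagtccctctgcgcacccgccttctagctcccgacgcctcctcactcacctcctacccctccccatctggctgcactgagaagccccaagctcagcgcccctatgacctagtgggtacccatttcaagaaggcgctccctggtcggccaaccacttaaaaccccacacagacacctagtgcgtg
Hoxb1 (chr11:96365508-96365751): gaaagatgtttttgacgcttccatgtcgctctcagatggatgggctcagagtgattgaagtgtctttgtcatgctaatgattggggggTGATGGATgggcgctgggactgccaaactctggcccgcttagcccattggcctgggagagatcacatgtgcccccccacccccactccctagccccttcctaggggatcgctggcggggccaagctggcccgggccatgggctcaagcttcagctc
The Hoxb8 stretch holds TCGTAAA 176 bases before the start and ATTGATCA, a Hox and Pbx match on the other strand, 11 bases before it. The Hoxb1 stretch holds TGATGGAT 162 bases before the start, and the Hoxb4 stretch holds neither set of letters. Among 32851 RefSeq promoters of 250 bases, 7.68% hold the Hox and Pbx letters and 0.478% the group 13 letters. A match is a run of letters and says nothing of binding. CG dinucleotides, which PRC2 targets are rich in, numbered 12 in Hoxb8, 14 in Hoxb4 and 7 in Hoxb1, against a median of 6 over all promoters, and 66.5%, 70.6% and 53.7% of promoters, in that order, hold fewer. The 3 promoters are not far from the middle of all promoters by this count.

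Depth over the libraries used ran from 865832 to 7249098 reads in genes, with a median of 4774010.5, and the E12.5 libraries, at 865832 to 2359317, were the shallowest. Eed was lower in the mutants in green cells at the later ages. It fell from 41.1 ± 9.95 (SD, n = 3) counts per 1000000 reads (CPM) in control-MADM to 18.8 ± 5.88 (n = 4) in cKO-Eed-MADM at E16.5, and from 29.4 ± 3.14 (n = 5) to 11.6 ± 3.46 (n = 4) at P0, with 17.8 ± 4.34 (n = 5) and 15.5 ± 3.12 (n = 9) in Eed-MADM at these ages. No green mutant library of E13.5 or later reached the control range of its age. Green Eed-MADM replicate 2 of E13.5 came near, at 52.7 CPM against 59.2 and 69.9 in the controls. Replicate 6 of that group had 28.4 CPM and cKO-Eed-MADM 15.7 to 25.4. Replicate 2 held 2 HoxB reads, and whether its Eed level bears on this was not tested. At E12.5, 2 of the 8 green Eed-MADM libraries (replicates 1 and 7, at 78.0 and 84.6 CPM) lay within the control range (75.2 to 152), and neither held a HoxB read. Among the red and yellow cKO-Eed-MADM libraries with controls of the same color and age 1 went against its label. The red P0 library labelled cKO-Eed-MADM replicate 1 had 33.3 CPM of Eed, above both control-MADM red libraries of that age (25.4 and 30.9), and reads on only 13133 genes, where the other red library of that group had 5.51 CPM of Eed and reads on 18385 genes. Results for red P0 cells are given with and without it. CPM values were scaled by TMM over all 92 libraries, and a level that falls in bulk RNA cannot be split into fewer cells and less RNA per cell.

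**Figure D1:**
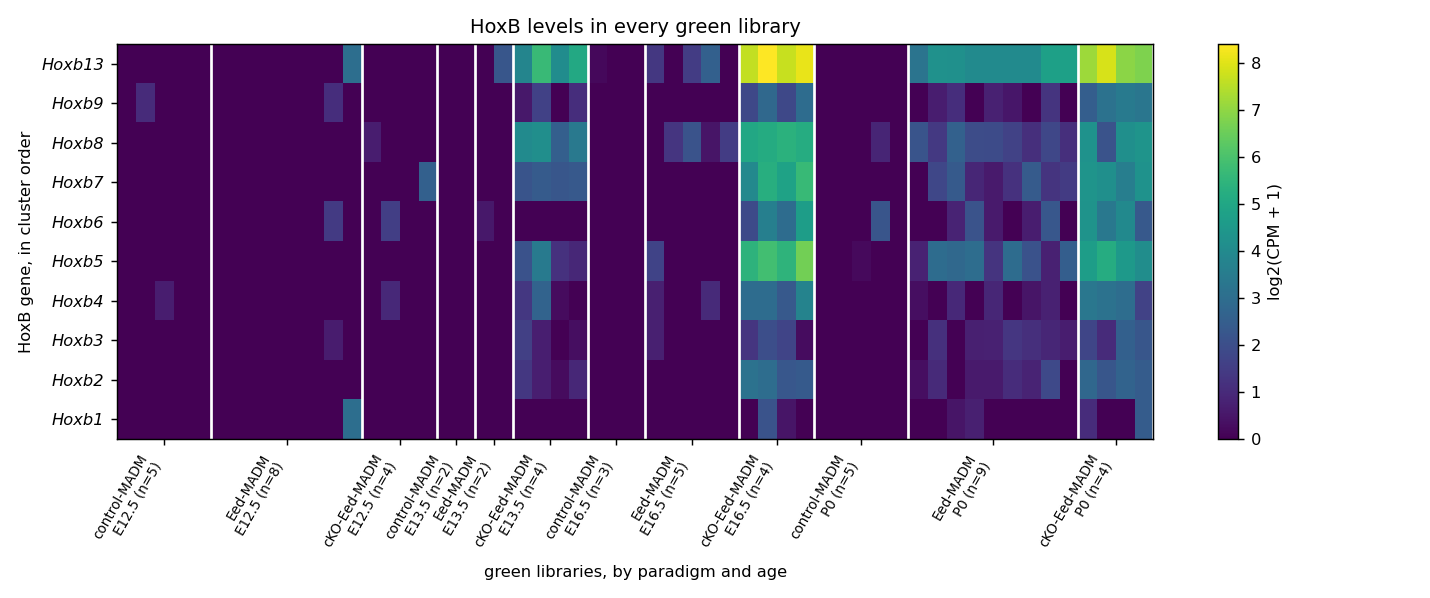
Level of each HoxB member (rows, from Hoxb13 at the top to Hoxb1 at the bottom, as they lie on the chromosome) in every green library used (columns, grouped by age and genotype, n under each group), as log2(CPM + 1) in color from dark (0) to bright. The cKO-Eed-MADM libraries stand out mainly at Hoxb13 and Hoxb8 at E13.5, and across most members at E16.5 and P0. Eed-MADM at P0 does so mainly at Hoxb13, and the control-MADM columns are dark but for a few squares.

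In green cells of control cortex the HoxB cluster was all but silent. At E13.5 neither green control-MADM library had a read on any member. At E16.5 the 3 green libraries held 1 read among them, on Hoxb13 (0.146 CPM in replicate 1). At P0, 3 of the 5 had none, replicate 4 had 1 read on Hoxb5 (0.165 CPM), and replicate 5 had 18 reads on Hoxb6 (3.71 CPM) and 4 on Hoxb8 (0.824 CPM). Replicate 5 thus decides the control level of Hoxb6 and Hoxb8 at P0. At E12.5 the green controls held single reads on Hoxb9 (1.05 CPM in replicate 2) and Hoxb4 (0.602 CPM in replicate 3).

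At E12.5 no difference was called in the mutant groups. None of the 10 members had a mean count over 1, the limit for testing at this age, and the background was 0.0% of 18100 genes called higher in each of the 3 comparisons of green cells with the edgeR quasi-likelihood test, with 470 to 913 genes higher at an unadjusted p under 0.05. With no limit on counts no member passed at E12.5 either, where 0.00586% of 34129 genes were called higher in Eed-MADM and 0.319% in the cKO against control-MADM, and 0.492% in the cKO against Eed-MADM. The reads present sat in single libraries. Eed-MADM replicate 9 had 10 reads each on Hoxb13 and Hoxb1 (7.17 CPM each) with all 7 other libraries of the group at 0 for both, and cKO-Eed-MADM replicate 5 had 8 reads on Hoxb7 (5.00 CPM) with the other 3 at 0.

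At E13.5 HoxB reads were present in each green cKO-Eed-MADM library, with 6 to 8 members read in each, or 4 to 7 once thinned to the depth of the shallowest library. Hoxb13, read at the tail of the embryo, had 13.3, 51.4, 16.2 and 33.0 CPM in cKO-Eed-MADM replicates 1, 2, 3 and 5. Eed-MADM had 0 and 3.79 CPM in replicates 2 and 6, and control-MADM 0 in both libraries. Hoxb8, which acts in trunk spinal cord, had 15.3, 16.8, 4.84 and 9.45 CPM, and no read in Eed-MADM or control-MADM. Hoxb7, its neighbour, was the most even member, at 3.55, 4.37, 3.72 and 4.15 CPM. Hoxb5 ranged from 0.922 to 9.98 CPM, Hoxb4 from 0 to 5.41, and Hoxb9, Hoxb3 and Hoxb2 stayed at or under 2.08. Hoxb6 and Hoxb1 had no read in any of the 4.

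Only Hoxb13 and Hoxb8 passed the limit of a mean count over 10 at E13.5. In cKO-Eed-MADM neither passed against control-MADM, where 0.0297% of 13448 genes were called higher. Hoxb13 had a log2 fold change of 10.15 (SE 1.76, adjusted p = 0.0566, edgeR) and Hoxb8 of 8.86 (SE 1.63, adjusted p = 0.0643). Since the controls hold no read, these folds depend on the prior count, and the reads allow only that Hoxb13 was at least 106-fold and Hoxb8 at least 42.7-fold higher, against 3 counts over the control group. Of 13448 genes, 10.5% had 4 cKO-Eed-MADM libraries above both controls. With control-MADM replicate 3 left out, both passed (adjusted p = 0.0382 and 0.0424), and with DESeq2 both did as well. Against Eed-MADM, where 0.0149% of genes were called higher, the adjusted p was 0.558 for Hoxb13 and 0.236 for Hoxb8.

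By E16.5 the whole cluster was read in cKO-Eed-MADM green cells. Each of the 4 libraries had reads on 9 or 10 members, or 7 to 10 once thinned, against 0 or 1 in control-MADM. The summed level of the 10 genes was 308, 509, 340 and 515 CPM, where the highest control was 0.146. Of the 10 members 6 passed the limit on counts (Hoxb4, Hoxb5, Hoxb6, Hoxb7, Hoxb8 and Hoxb13), which they did through this group, and all 6 were called higher, where 6.16% of 13359 genes were. In each of these 6 the lowest cKO-Eed-MADM library lay above the highest control, as for 11.8% of all genes.

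Hoxb13 took the largest part of the HoxB reads at E16.5. It had 198, 340, 209 and 282 CPM in cKO-Eed-MADM replicates 1 to 4, and 1 read over the 3 controls. Its log2 fold change was 11.49 (SE 0.92, adjusted p = 1.51e-06), and the pooled ratio was 3921, with a 95% counting interval from 703 up. It made up 54.7% to 66.9% of all HoxB CPM in these libraries. No control library reached the range of the mutants.

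Among the posterior and middle members, Hoxb8 was the most even at E16.5. It had 32.4, 35.5, 40.5 and 36.2 CPM, no control read, and rose by at least 182-fold (log2 fold change 10.54, SE 1.24, adjusted p = 3.29e-05). Hoxb7 had 14.4, 37.6, 27.8 and 50.3 CPM and was at least 165-fold higher (10.40, SE 1.05, adjusted p = 4.42e-05). Hoxb6, which lies between Hoxb7 and Hoxb5, varied the most of those tested, at 2.72, 11.3, 6.81 and 24.6 CPM, at least 57.0-fold higher (8.88, SE 1.61, adjusted p = 0.00345). Hoxb6 had shown no read at E13.5 in the same genotype.

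Hoxb5, known from the neural crest of the gut, had 42.0, 57.7, 43.0 and 98.1 CPM at E16.5, at least 301-fold above the controls (log2 fold change 11.28, SE 1.36, adjusted p = 4.26e-05). Hoxb4, which acts in the hindbrain and in blood stem cells, had 6.90, 6.83, 4.09 and 12.5 CPM (8.29, SE 1.76, adjusted p = 0.00562), at least 37.7-fold higher. The 4 members under the limit on counts were read in cKO-Eed-MADM too. Hoxb9 had 2.51 to 6.85 CPM and Hoxb2 3.89 to 7.94, both with reads in all 4 libraries and none in controls. Hoxb3 had 0.201 to 3.07 CPM. Hoxb1, the most anterior, had reads in 2 of 4 libraries, 3.42 CPM in replicate 2 and 0.389 in replicate 3. Without the limit on counts, where 3.89% of genes were called higher, Hoxb2 (adjusted p = 0.000959) and Hoxb9 (0.00389) passed as well, and Hoxb3 (0.0699) and Hoxb1 (0.185) did not.

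At P0 the cluster was still read in cKO-Eed-MADM. The summed level was 249, 328, 216 and 193 CPM in the 4 green libraries, with 9 or 10 members read in each. The limit on counts kept 5 members, which passed it through the mutant libraries. All 5 were called higher than in control-MADM, where 14.2% of 14161 genes were. Hoxb13 had 144, 241, 123 and 111 CPM against no read in 5 controls, which is at least 1365-fold higher (log2 fold change 12.66, SE 0.60, adjusted p = 8.79e-12). Hoxb5 had 24.7, 36.0, 22.7 and 16.4 CPM (8.74, SE 0.89, adjusted p = 1.23e-07). Hoxb7 had 19.7, 17.3, 11.3 and 18.4 CPM, at least 159-fold higher (9.43, SE 1.11, adjusted p = 2.98e-06). For these 3 and for Hoxb8 and Hoxb6 no cKO-Eed-MADM library overlapped the controls, as for 10.4% of genes.

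Hoxb8 and Hoxb6 turned on single libraries at P0. Hoxb8 had 18.4, 17.1 and 19.7 CPM in 3 cKO-Eed-MADM libraries and 3.46 (10 reads) in replicate 2, the library with the highest Hoxb13 and Hoxb5 of the 4. It was called higher than in control-MADM (6.42, SE 0.85, adjusted p = 4.75e-06). Hoxb6 had 19.1, 9.34, 14.9 and 4.11 CPM and was called (4.03, SE 1.25, adjusted p = 0.0216). Without control replicate 5, the library with 18 reads on Hoxb6, its log2 fold change was 8.95 (adjusted p = 0.000563), and without cKO-Eed-MADM replicate 1 the call was lost (adjusted p = 0.0515), as it was with DESeq2 (0.114) and with no limit on counts (0.0832).

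The members under the limit were read in cKO-Eed-MADM at P0 as well. Hoxb9 had 4.69 to 9.90 CPM, Hoxb4 2.14 to 9.21, Hoxb2 3.80 to 5.96 and Hoxb3 1.04 to 5.04, each in all 4 libraries and with no read in any control. They were at least 74.6-fold, 60.6-fold, 48.2-fold and 31.3-fold higher, in that order. Hoxb1 had 1.08 and 4.47 CPM in 2 libraries and none in the other 2. Without the limit on counts, where 6.96% of genes were called higher, 9 members passed, all but Hoxb6.

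**Figure D2:**
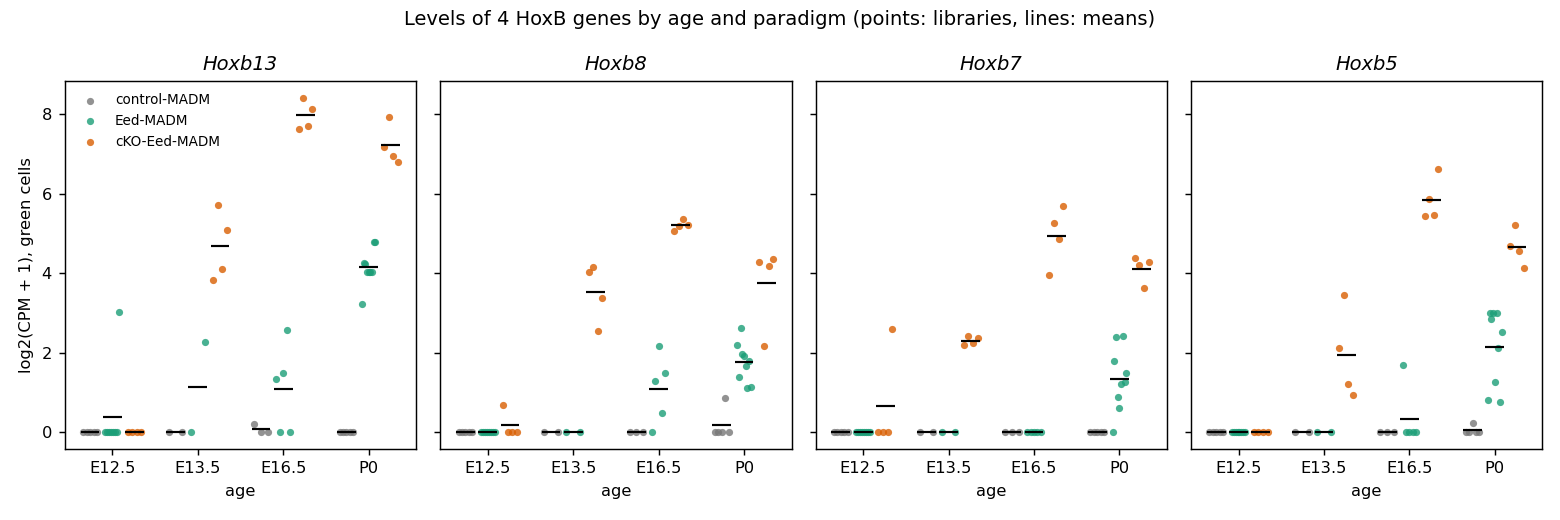
Level of Hoxb13, Hoxb8, Hoxb7 and Hoxb5 in green cells as log2(CPM + 1) by age, with a point for each library, a line at the mean of these log values and a color for each of the 3 genotypes. In cKO-Eed-MADM Hoxb13 goes from 28.5 ± 17.6 CPM (SD, n = 4) at E13.5 to 257 ± 66.7 (n = 4) at E16.5, while Eed-MADM has 4.95 CPM at most at these ages and 17.7 ± 5.84 (n = 9) at P0.

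Sparse Eed-/- cells of Eed-MADM, which lie in heterozygous tissue, had far lower HoxB levels. At E16.5 the summed level in the 5 green libraries was 1.44 to 6.33 CPM, with 1 to 4 members read in each. Hoxb8 had 0, 1.44, 3.48, 0.396 and 1.81 CPM and Hoxb13 1.55, 0, 1.82, 4.95 and 0 CPM. Hoxb5 was read in replicate 1 alone (2.21 CPM), Hoxb4 in replicates 1 and 4 (0.663 and 0.990 CPM), and Hoxb9, Hoxb7, Hoxb6, Hoxb2 and Hoxb1 in none. With edgeR none of the 6 members tested was called higher than in control-MADM, where 0.24% of genes were. Hoxb8 came closest, at a log2 fold change of 5.92 (SE 1.47, adjusted p = 0.106), and passed without Eed-MADM replicate 1 (adjusted p = 0.0251), the library where it was not read. DESeq2 called Hoxb8 too (5.26, adjusted p = 0.00883). With no limit on counts, where 0.792% of genes were called higher, Hoxb8 (adjusted p = 0.000475) and Hoxb13 (1.07e-05) passed.

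At P0 the green Eed-MADM cells had moved away from the controls. The summed level was 13.2 to 40.7 CPM over 9 libraries and 5 to 9 members were read in each. Of the 5 members tested 4 were called higher than in control-MADM, where 1.52% of 14161 genes were. The controls are those that cKO-Eed-MADM was compared with. Hoxb13 had 8.35 CPM at the lowest, 15.4 at the median and 26.8 at the highest, and no control read, which is at least 168-fold higher (log2 fold change 9.50, SE 0.65, adjusted p = 1.09e-08). Every Eed-MADM library lay above every control for Hoxb13, Hoxb8 and Hoxb5, as for 0.946% of genes.

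Hoxb5 was read in 9 of 9 Eed-MADM libraries at P0, from 0.695 to 7.00 CPM, against 1 control read (log2 fold change 6.16, SE 0.87, adjusted p = 0.000171). Hoxb7 was read in 8 of 9, up to 4.30 CPM, at least 18.0-fold above controls (6.28, SE 1.12, adjusted p = 0.00463). Hoxb8 was read in 9 of 9, from 1.17 to 5.19 CPM (3.92, SE 0.79, adjusted p = 0.0088), and without control replicate 5 its log2 fold change was 6.74. Hoxb6 was read in 5 of 9, up to 3.82 CPM, and did not pass (0.56, SE 1.10, adjusted p = 0.838, or 5.49 with adjusted p = 0.134 without control replicate 5). Hoxb9, Hoxb4, Hoxb3, Hoxb2 and Hoxb1 did not reach the limit and had at most 2.61 CPM in any library.

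Green Eed-/- cells thus had the same Eed genotype in both mutant groups, and their HoxB levels were set side by side directly. At E16.5 all 6 members tested were higher in cKO-Eed-MADM than in Eed-MADM, where 4.45% of genes were called higher. The 6 had passed the limit on counts through cKO-Eed-MADM. The 2 groups overlapped in none of the 6, as for 5.71% of genes. The log2 fold change was 7.16 for Hoxb5 (SE 0.76, adjusted p = 9.46e-06), 4.63 for Hoxb8 (SE 0.60, adjusted p = 7.09e-05) and 4.48 for Hoxb4 (SE 1.02, adjusted p = 0.0105). Hoxb6, which Eed-MADM did not hold at E16.5, was at least 96.0-fold higher (adjusted p = 0.000602). Hoxb8 and Hoxb4 differed less between the mutants than Hoxb5 in point value, and these differences between members were not tested.

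At P0 all 5 members tested were higher in cKO-Eed-MADM than in Eed-MADM, where 11.2% of genes were called higher, by folds that lay nearer to each other. The 5 had passed the limit on counts through the mutant libraries. The log2 fold change was 3.15 for Hoxb13 (SE 0.24, adjusted p = 2e-08), 3.15 for Hoxb7 (SE 0.57, adjusted p = 0.000455), 2.58 for Hoxb5 (SE 0.47, adjusted p = 0.000341), 2.51 for Hoxb8 (SE 0.54, adjusted p = 0.00162) and 3.47 for Hoxb6 (SE 0.98, adjusted p = 0.0143). Hoxb8 overlapped, since cKO-Eed-MADM replicate 2, at 3.46 CPM, lay under the highest Eed-MADM library. The other 4 did not, as for 6.13% of genes. Hoxb6 lost its call with DESeq2 (adjusted p = 0.123) and with no limit on counts (0.0628). The pooled ratio of the members below the limit ran from 4.31 for Hoxb3 to 16.7 for Hoxb4.

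Between E16.5 and P0 the HoxB level rose in Eed-MADM, while no change was called in cKO-Eed-MADM. In Eed-MADM 4 of 6 members tested rose, where 14.2% of 13919 genes were called higher at P0: Hoxb13 by 3.38 on the log2 scale (SE 0.46, adjusted p = 3.71e-06), Hoxb5 by 3.30 (SE 0.74, adjusted p = 0.00131), Hoxb7 by at least 15.9-fold (adjusted p = 0.000181) and Hoxb6 by at least 9.84-fold (adjusted p = 0.0313), both against 5 libraries of E16.5 without a read. Hoxb6 lost its call without any 1 of the 5 (adjusted p = 0.0531 to 0.0637), and the other 3 kept theirs. Hoxb8, which most Eed-MADM libraries of E16.5 already held, had a change of 0.81 (SE 0.58, adjusted p = 0.322). In cKO-Eed-MADM none of the 6 passed in either direction, where 21.5% of genes did. The values there were -0.73 for Hoxb13 (SE 0.39, adjusted p = 0.193), -1.27 for Hoxb5 (SE 0.63, adjusted p = 0.154) and -1.30 for Hoxb8 (SE 0.64, adjusted p = 0.149). A change of the effect against control-MADM between the ages was not detected for any member (against 1.85% of all genes for cKO-Eed-MADM and 0.0575% for Eed-MADM), in a test that rests on control groups with almost no HoxB read.

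Levels were set against position per kilobase of exon, so that genes of different length can be compared. In cKO-Eed-MADM at E16.5 Hoxb13 led with 116.5 ± 30.3 CPM per kb (SD, n = 4), followed by Hoxb5 (21.6 ± 9.42), Hoxb7 (21.1 ± 9.84) and Hoxb8 (13.7 ± 1.27). Hoxb6, Hoxb4, Hoxb9 and Hoxb2 came next with 5.78, 2.95, 1.75 and 1.65, and Hoxb3 and Hoxb1 closed the order with 0.416 and 0.410. Among neighbours in this order only Hoxb13 and Hoxb5, and Hoxb2 and Hoxb3, did not overlap between libraries. The step from Hoxb2 to Hoxb3 rests on lengths that include bases shared with antisense genes. With these bases left out the means were 2.27 for Hoxb2 and 0.884 for Hoxb3, which puts Hoxb2 above Hoxb9 (1.75). At P0 the order was Hoxb13 (70.1 ± 26.9), Hoxb7 (10.8), Hoxb5 (8.96), Hoxb6 (6.05), Hoxb8 (5.56), Hoxb9 (3.06), Hoxb4 (2.56), Hoxb2 (1.41), Hoxb3 (0.716) and Hoxb1 (0.597), and only the first step, from Hoxb13 to Hoxb7, was free of overlap.

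The posterior members tended to have the higher means per kb, with Hoxb9 low for its place. Over the 10 members the Spearman correlation of mean level per kb with distance from the Hoxb1 start in cKO-Eed-MADM was 0.693 (E13.5), 0.721 (E16.5) and 0.782 (P0). In Eed-MADM it was 0.661 at P0. Without Hoxb13 these 4 values were 0.577, 0.617, 0.700 and 0.533 over 9 members. With exon bases shared with antisense genes left out of the length, the 4 values over 10 members were 0.705, 0.636, 0.782 and 0.600. Over the 9 members without Hoxb13 they were then 0.594, 0.5, 0.7 and 0.45. The 10 points share libraries and one cluster, and the values are a description. In Eed-MADM at P0 the order per kb began with Hoxb13 (8.02 ± 2.65, n = 9), Hoxb5 (1.51), Hoxb7 (1.21) and Hoxb8 (0.969). Only the step from Hoxb13 to Hoxb5 was free of overlap between libraries. The same 4 genes led in cKO-Eed-MADM at E16.5, at a higher level, but in cKO-Eed-MADM at P0 Hoxb6 came before Hoxb8.

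**Figure D3:**
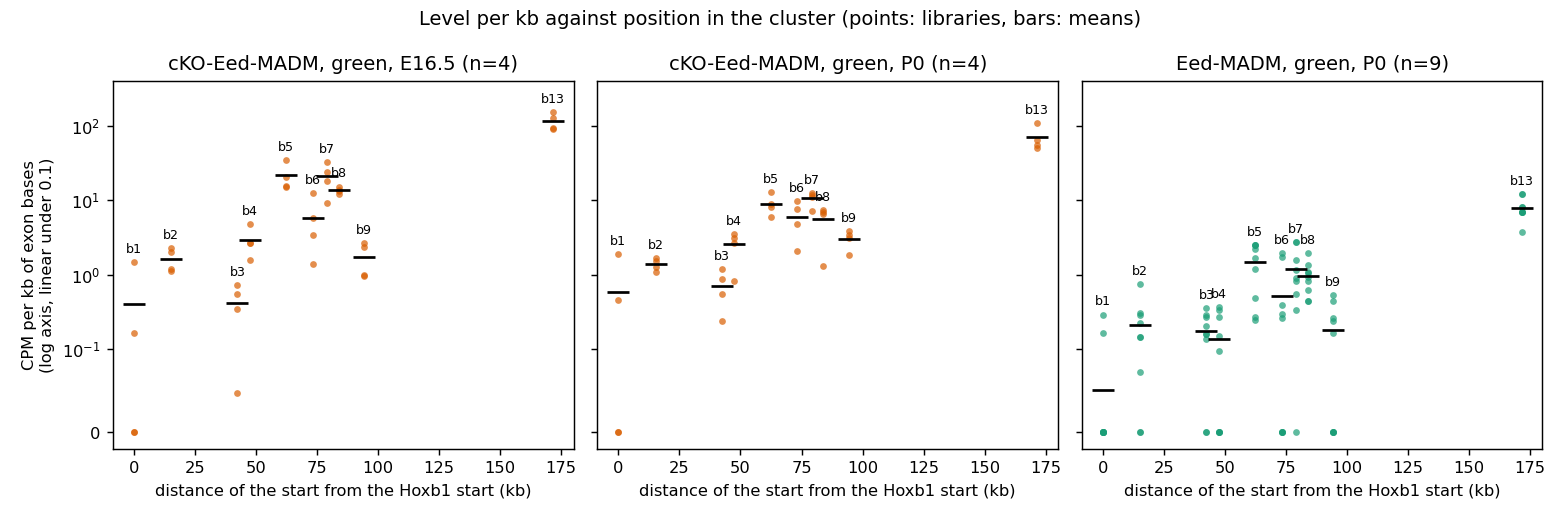
CPM per kb of exon (log axis, linear under 0.1) against the distance of each HoxB member from the Hoxb1 start in kb, in green cells, with a point for each library and a bar at the mean, for cKO-Eed-MADM at E16.5 and P0 and Eed-MADM at P0. Hoxb13, 171.436 kb away, is highest in each panel, Hoxb5 to Hoxb8 lie next, and Hoxb1 to Hoxb4 and Hoxb9 have lower means.

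The makeup of the HoxB signal was compared as the share of each member in the summed CPM. In cKO-Eed-MADM Hoxb13 held 32.4% to 66.2% of it at E13.5, 54.7% to 66.9% by E16.5 and 56.8% to 73.6% in newborns. In newborn Eed-MADM it held 48.7% to 76.3%. The ranges of the mutants at P0 overlapped, although the summed level differed between them in every library. The share of Hoxb8 was 18.3% to 37.3% in cKO-Eed-MADM at E13.5, above its 6.98% to 11.9% at E16.5 and 1.05% to 10.2% at P0 in each library, and these shares were not tested.

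**Figure D4:**
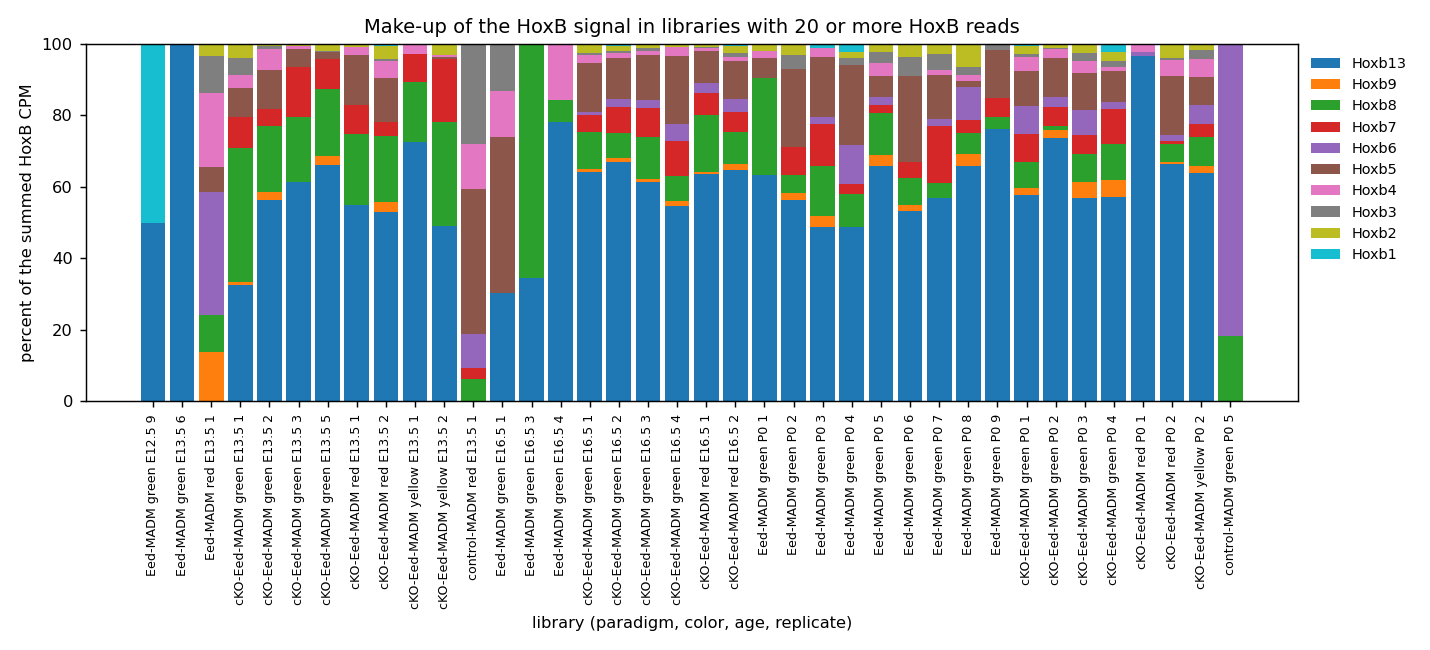
Share in percent of each HoxB member in the summed HoxB CPM, as stacked bars, for each library of any color with at least 20 HoxB reads, ordered by age and genotype. Hoxb13 takes the largest share in most mutant libraries, and the red Eed-MADM library of E13.5, the red control of E13.5 and the green control of P0 that had enough reads hold other members and no Hoxb13.

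Red and yellow cells of cKO-Eed-MADM, which are Eed-/- as well, gave libraries at E13.5 and P0. E16.5 had red ones only, and E12.5 had 1 yellow library. The yellow E12.5 library held no HoxB read, and each of the other groups held some. At E13.5 Hoxb13 had 22.2 and 19.0 CPM in 2 yellow libraries and 25.5 and 28.8 CPM in 2 red libraries. Hoxb8 had 5.16 and 11.3 CPM in yellow and 9.30 and 9.91 CPM in red cells. Hoxb6 had no read in any of the 8 cKO-Eed-MADM libraries of E13.5, of any color. No member was called at E13.5 in these colors, where 0.00747% of 13382 genes in yellow and 0.0822% in red cells were called higher. The single red control of E13.5 held 32 HoxB reads (9.45 CPM in sum), none on Hoxb13 and most on Hoxb5 (3.84 CPM) and Hoxb3 (2.66 CPM).

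At E16.5 the 2 red cKO-Eed-MADM libraries had 184 and 239 CPM of Hoxb13, 46.0 and 33.5 of Hoxb8, 26.1 and 39.2 of Hoxb5 and 17.6 and 21.3 of Hoxb7. Against the 4 green libraries, Hoxb7 lay within their range, Hoxb5 under it in both, and 1 value each of Hoxb13 and Hoxb8 outside it. The 2 red controls had no HoxB read. Of 6 members tested 5 were called higher than in red control-MADM, where 3.02% of 13287 genes were, Hoxb13 by at least 608-fold (adjusted p = 1.93e-05), and Hoxb4 was not (7.16, adjusted p = 0.0869). Hoxb6 lost its call without control replicate 1 (adjusted p = 0.208), control replicate 2 (0.139) or cKO-Eed-MADM replicate 2 (0.0881).

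At P0 the single yellow cKO-Eed-MADM library had 123 CPM of Hoxb13 and reads on 9 members. Hoxb13, Hoxb8, Hoxb5 and Hoxb7 were called higher than in 2 yellow controls (adjusted p = 2.15e-05, 0.0305, 0.0299 and 0.0475), where 3.32% of 14169 genes were, and the lone library is assumed to vary like the other groups. Without control replicate 2 only Hoxb13 stayed called (adjusted p = 0.00152). Yellow control replicate 2 had reads on only 13181 genes, where yellow control replicate 1 had reads on 19880. The yellow calls of Hoxb8, Hoxb5 and Hoxb7 thus depend on a control with few genes detected. The red P0 libraries labelled cKO-Eed-MADM had 95.8 and 167 CPM of Hoxb13. Replicate 1, the library whose Eed level went against its label, had reads on Hoxb13, Hoxb6 and Hoxb4 alone, and Hoxb13 made up 96.6% of its HoxB CPM, where replicate 2 had reads on 9 members with 41.8 CPM of Hoxb5 and 12.7 of Hoxb8.

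With both red P0 libraries, Hoxb13 (log2 fold change 8.12, SE 0.85, adjusted p = 3.88e-05), Hoxb5 (adjusted p = 0.0169) and Hoxb8 (adjusted p = 0.0454) were called higher than in red controls, where 2.0% of genes were. Without replicate 1 the same 3 were called (adjusted p = 8.72e-06, 0.00175 and 0.015). Hoxb5 and Hoxb8 lost their calls without either control, at adjusted p = 0.115 and 0.194 without control replicate 1 and 0.117 and 0.204 without control replicate 2, while Hoxb13 kept its call (0.000603 and 0.000764). A fit that leaves a lone library in a group assumes that it varies like the other groups.

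In Eed-MADM the yellow and red cells, which keep at least 1 copy of Eed, held few or no HoxB reads and no member was called against controls of the same color. Up to E16.5, 0.0% of genes were called higher in each of these comparisons. At P0, where 0.805% of 14169 genes in yellow and 0.0% in red cells were called higher, the 2 yellow libraries had no HoxB read and the 2 red libraries had 1 read between them, on Hoxb3, while green cells of the same group had 8.35 to 26.8 CPM of Hoxb13. Hoxb13 was called higher in green than in red cells (log2 fold change 9.46, SE 1.13, adjusted p = 0.000344, at least 66.3-fold), where 0.0917% of 14169 genes were. It was called higher in green than in yellow cells as well (9.46, SE 1.15, adjusted p = 0.000289, at least 61.9-fold), where 0.127% of genes were. With edgeR the other members tested did not pass. DESeq2 also called Hoxb5 against red cells (adjusted p = 0.048), and Hoxb5 (0.0143) and Hoxb8 (0.0367) against yellow cells. Without red replicate 1 the green to red difference had an adjusted p of 0.0514. The red library of E13.5 numbered 1 held 29 HoxB reads (6.54 CPM in sum), none on Hoxb13, with 2.26 CPM of Hoxb6, and the other red library of that age held none.

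**Figure D5:**
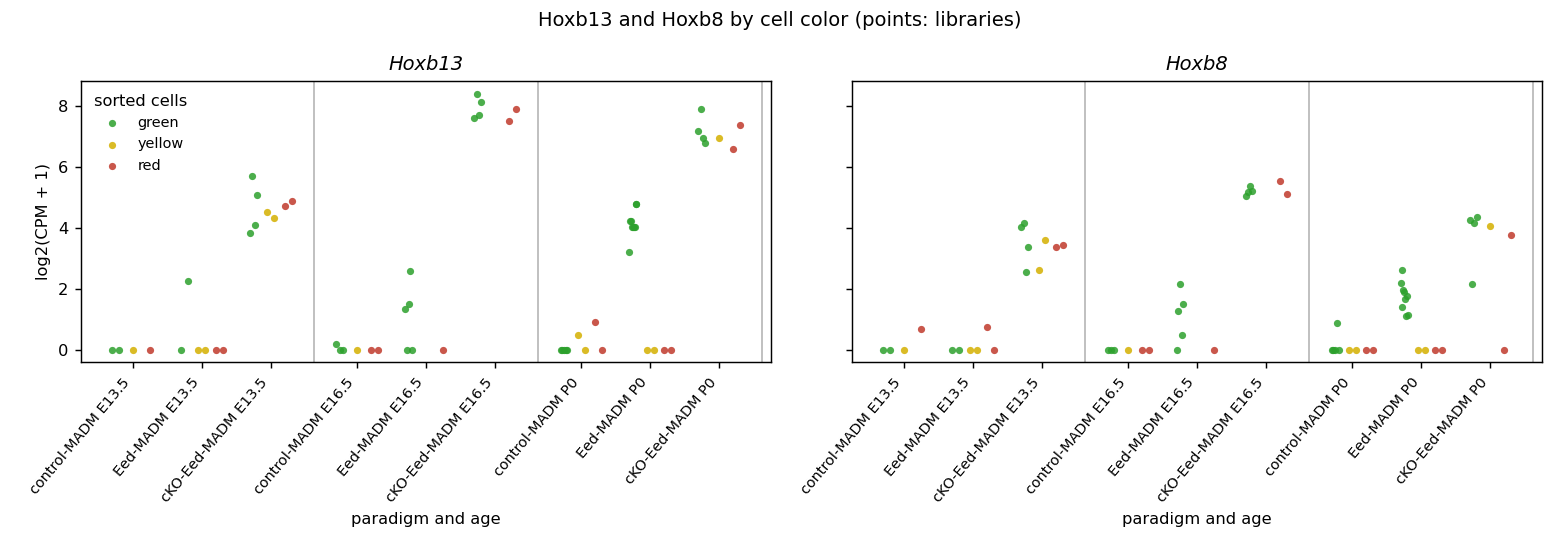
Level of Hoxb13 and of Hoxb8 as log2(CPM + 1) by cell color (green, yellow, red) in each genotype from E13.5 on, with a point for each library. In cKO-Eed-MADM each color lies above the control libraries of its age, except for Hoxb8 at 0 in the red P0 library labelled replicate 1, and at P0 in Eed-MADM only green cells, at 8.35 to 26.8 CPM of Hoxb13, stand above 0.

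Members of the other 3 Hox clusters were higher in the same fits. At E16.5 in green cKO-Eed-MADM cells all tested members were called higher than in control-MADM, 6 of 6 in HoxA, 8 of 8 in HoxC and 4 of 4 in HoxD, with a median log2 fold change of 11.26, 10.34 and 9.45, beside 10.47 for HoxB and 0.00103 over all genes tested, of which 6.16% were called higher. In Eed-MADM at P0 the counts were 5 of 6, 7 of 8 and 2 of 5, with medians of 6.28, 6.71 and 4.17, beside 4 of 5 and 6.16 for HoxB, where 1.52% of all genes were called higher. As in HoxB, members without control reads pass the limit on counts through the mutant libraries.

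Around the cluster few genes could be tested. Of 24 other annotated genes in the cluster or within 250 kb of it, 4 passed the limit on counts at E16.5 and none was called higher in cKO-Eed-MADM than in control-MADM. Igf2bp1, an RNA-binding protein gene on the Hoxb13 side, was lower (115 ± 20.9 against 69.1 ± 9.63 CPM, log2 fold change -0.71, adjusted p = 0.02). At P0 it was higher in both mutants, by 0.71 in Eed-MADM (adjusted p = 0.0236) and 0.70 in cKO-Eed-MADM (adjusted p = 0.00824). Snf8, Ube2z and Atp5g1, which lie beyond Hoxb13 too, were not called between genotypes in green cells at either age. Gm53, a long noncoding RNA gene inside the cluster between Hoxb13 and Hoxb9, was higher at P0. It had no read in P0 controls, 0.565 CPM on average in Eed-MADM and 11.4 ± 6.72 (SD, n = 4) in cKO-Eed-MADM (8.88 against control-MADM, adjusted p = 4.44e-05).

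Hox proteins bind DNA together with cofactors of the Pbx, Meis and Pknox families, and all 9 listed could be tested. At E16.5 in cKO-Eed-MADM against control-MADM, Meis1 (log2 fold change 2.31, adjusted p = 0.00388), Pbx3 (1.99, adjusted p = 0.0146) and Pknox1 (1.01, adjusted p = 0.0103) were higher. At P0 Pbx3 was higher (1.27, adjusted p = 0.00191) and Meis2 was lower (-1.80, adjusted p = 5.43e-09). In Eed-MADM no cofactor was called at either age. The median over the 9 was -0.09 and -0.15 in cKO-Eed-MADM at the 2 ages.

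Of 16 genes known to turn HoxB genes on or off in the hindbrain and trunk, 8 could be tested at E16.5 and P0. Rara, a retinoic acid receptor, was higher in cKO-Eed-MADM at E16.5 (1.61, adjusted p = 0.00248) and at P0 (1.96, adjusted p = 2.86e-05), and in Eed-MADM at P0 (1.01, adjusted p = 0.041). Rarb, a second such receptor and itself a retinoic acid target, was higher at E16.5 (6.12, adjusted p = 0.0145). At P0 Egr2, a regulator of Hoxb2 (1.68, adjusted p = 0.000173), and Aldh1a2, which makes retinoic acid (3.47, adjusted p = 0.00893), were higher, and Kdm6b, a demethylase of the mark PRC2 places, was lower (-0.83, adjusted p = 0.000383). Of 11 PRC2 subunit and partner genes, Eed alone was called at E16.5 in cKO-Eed-MADM (-1.10, adjusted p = 0.0314), and at P0 Eed (-1.32), Ezh2 (-0.89), Mtf2 (-0.54) and Rbbp4 (-0.51) were lower, where 10.0% of all genes were.

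The cells kept cortical genes, at lower levels in cKO-Eed-MADM. The summed level of 10 cortical genes was 4638 to 4972 CPM in control-MADM and 1901 to 2344 in cKO-Eed-MADM at E16.5, with 6 of 10 called lower (2.42% of all genes were) and 1 higher, and 2428 to 3217 against 866 to 1012 CPM at P0, with 7 of 10 lower (10.0% of all genes were). In Eed-MADM none of the 10 was called at either age. Of 10 genes of hindbrain and spinal neurons, where HoxB genes are normally read, 2 could be tested at E16.5 and 3 at P0. Isl1 was higher in cKO-Eed-MADM at E16.5 (11.49, adjusted p = 1.46e-05). At P0 all 3, Isl1, Isl2 and Slc18a3, were higher there, and 14.2% of all genes were. In Eed-MADM at P0 Isl1 was higher too (3.23, adjusted p = 0.048). Genes with few control reads pass the limit on counts through the mutant libraries. The 10 genes summed to 30.1 to 111 CPM in cKO-Eed-MADM against 0 to 3.85 in control-MADM at E16.5, and Slc5a7 and Tph2 had no read in the former.

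Markers of other cell types moved with cKO-Eed-MADM as well. At P0, 6 of 7 tested microglia genes were higher than in control-MADM (14.2% of all genes were), and the 8 listed summed to 7.25 to 54.0 CPM in control-MADM, 1.27 to 163 in Eed-MADM and 176 to 400 in cKO-Eed-MADM. Of the meningeal and mesenchymal genes 5 of 6 were higher, at 18.7 to 56.8, 14.9 to 57.2 and 98.2 to 267 CPM. At E16.5, where 6.16% of all genes were higher, 2 of 6 microglia genes were, with sums of 5.93 to 6.87, 0.362 to 41.7 and 17.5 to 65.2 CPM, and 1 of 4 meningeal genes. Csf1r, a defining microglia gene, had no read in the E16.5 controls. The 1 endothelial gene tested passed at neither age, and of 5 tested red blood cell genes Hba-a2 alone was higher at E16.5. Of the interneuron genes 6 of 7 were higher at E16.5, with sums of 14.1 to 35.3 CPM in control-MADM against 283 to 532 in cKO-Eed-MADM. At P0, where 10.0% of all genes were lower, 4 of 8 were lower and none was higher, with sums of 380.1 to 909 against 202 to 278 CPM. The part of these cells in the HoxB reads was not tested.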

How the data were processed

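RNA of sorted cells was sequenced by the authors with Smart-Seq2. They deposited raw read counts per gene for 116 libraries, made with STAR and its gene count mode on mm10 (GRCm38), with reads that align to several places left out. The sources used here do not give the annotation release, and 53274 of 53379 identifiers matched GENCODE M21 without version numbers. Column 2, counted without regard to strand, was used. The 92 libraries above 1000000 uniquely aligned reads and 60% of all reads were kept, and 24 were not. Reads in no gene or in several genes, 13.4% to 40.4% of the unique reads, stayed out of library sizes.

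TMM was used for normalization and edgeR 4.0.16 in R 4.3.3 for the tests (quasi-likelihood, robust, older form), keeping genes whose mean count exceeded 10, or 1 at E12.5. The 3 genotypes of an age shared a fit for green cells, all colors of an age another, and E16.5 and P0 a fit for ages. P-values were adjusted by Benjamini-Hochberg over all genes tested, and those under 0.05 were called. CPM were scaled by TMM over all 92 libraries. A fold against a group without reads is a bound, against 3 counts over that group, and a ratio to 1 to 3 reads has an exact counting interval at 95%, which covers counting error only. Each fit for green cells of an age was first tried on simulated counts with known changes in cKO-Eed-MADM. The fits over colors and over ages were not tried in this way. The labels do not say which libraries share mice, so p-values measure the spread between samples.

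The members and gene lists were chosen with earlier results of these data known. Named are the 10 members, Eed, genes within 250 kb that passed, up to 4 genes of each list by the lowest adjusted p, and the 5 genes outside the Hox clusters most like the summed HoxB level. Some listed genes that the rule names are not reported here. Python 3.11.15 with numpy 2.4.6, pandas 2.3.3, scipy 1.17.1 and matplotlib 3.10.9 was used for levels and figures. Alternatives were DESeq2 1.42.0, its size factors, the newer edgeR form, other limits on counts, all libraries, one strand, a fit of 2 groups, thinning to 865832 reads, the replicate number as a block, and, in groups of 2 to 5, each library left out in turn.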

Additional observations from a re-analysis of the deposited data

Results flagged for a closer look

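Dixon's gap test was applied to 49 groups of 4 to 10 libraries and members in which the top library had more than 3 reads. A lone library with reads among libraries at 0 is always marked by it, so the number of marks cannot be set against chance. In 11 cases a library lay far from the rest. At E12.5 these were green Eed-MADM replicate 9 for Hoxb13 and for Hoxb1 (7.17 CPM each, 10 reads each, 0 in the other 7), green cKO-Eed-MADM replicate 5 for Hoxb7 (5.00 CPM) and replicate 3 for Hoxb6 (1.93 CPM), and yellow control-MADM replicate 5 for Hoxb1 (3.94 CPM, 8 reads). At E16.5 they were green Eed-MADM replicate 1 for Hoxb5 (2.21 CPM) and green cKO-Eed-MADM replicate 2 for Hoxb1 (3.42 CPM, 20 reads, at most 0.389 in the other 3). At P0 green control-MADM replicate 5 stood apart for Hoxb6 (3.71 CPM) and Hoxb8 (0.824 CPM), green Eed-MADM replicate 8 for Hoxb2 (2.61 CPM), and green cKO-Eed-MADM replicate 2 was low for Hoxb8 (3.46 CPM against 17.1 to 19.7).

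Of the 24 libraries left out, 5 had too few reads, 6 too low a share of uniquely aligned reads and 13 both. Among them 7 mutant ones held more summed HoxB than the highest control left out (49.2 CPM), 3 of these with no more than 3 HoxB reads, and the other 4 are given here. Green Eed-MADM of E12.5 replicate 4 had 59.9 CPM (30 reads, 28 of them on Hoxb9). Green Eed-MADM of E13.5 replicate 3 had 243.8 CPM from 18 reads, with 1.55% of its reads uniquely aligned. Yellow Eed-MADM of E12.5 replicate 3 had 74.4 CPM from 4 reads. Yellow cKO-Eed-MADM of P0 replicate 1 had 82.7 CPM from 378 reads, 319 on Hoxb13 and 59 on Hoxb2 and none on the other members, with 55.9% of its reads uniquely aligned.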

How the results depend on the processing

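Over the counts of members called and their alternatives, 362 values stayed within 1.5 times the main count and 39 did not. For the single members, 609 values kept their direction and side of the threshold, 27 passed it newly, 6 lost it and 1 changed sign. At E13.5 the count for cKO-Eed-MADM against control-MADM went from 0 to 2 with DESeq2, the newer edgeR form, no limit on counts, all libraries, the second strand column or a fit of the 2 groups, and to 1 with thinning or the replicate block. Against Eed-MADM it went from 0 to 1 with DESeq2, all libraries or the block and to 2 with no limit, and Eed-MADM against control-MADM from 0 to 1 with no limit or all libraries. At E16.5 Eed-MADM against control-MADM went from 0 to 1 with DESeq2 and 2 with no limit. At P0 Eed-MADM against control-MADM went from 4 to 1 with thinning, which leaves Hoxb13 alone above the limit, and to 2 in a fit of the 2 groups. cKO-Eed-MADM against control-MADM went from 5 to 9 with no limit, 8 with filterByExpr or the 2 groups alone and 1 with thinning, and cKO-Eed-MADM against Eed-MADM from 5 to 8, 8 and 1 with filterByExpr, the 2 groups alone and thinning. Yellow cKO-Eed-MADM went from 4 calls to 2 on either strand column. Green against red cells of Eed-MADM went from 1 to 2 with DESeq2 or no limit, and green against yellow from 1 to 3 and 2. The cause of the changes was not tested beyond the number of members above the limit.

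With each library of the groups of 2 to 5 left out in turn, the counts ranged from 0 to 2 for cKO-Eed-MADM against control-MADM at E13.5, 5 to 7 at E16.5 and 4 to 6 at P0, and 0 to 1 for Eed-MADM against control-MADM at E16.5. They ranged from 1 to 4 for yellow cKO-Eed-MADM, 6 to 8 over ages for red cKO-Eed-MADM, and 0 to 1 for green against red Eed-MADM cells, where red P0 replicate 1 decides. Without any 1 library of E16.5 the rise in Eed-MADM to P0 was called for 3 members.

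Replicate numbers are shared between groups, but same-numbered libraries did not all deviate together. A correlation over 0.1 was seen in 8 of 36 pairs of green libraries of different genotypes (range -0.297 to 0.335). It was seen in 9 of 35 pairs of different colors of a genotype (range -0.0614 to 0.332). At E12.5 every green and yellow pair but that of control-MADM replicate 5 (0.0514) lay over 0.1. Where both groups hold 2 libraries their pairs give the same value, so the 35 are not separate checks. With the replicate number as a block, the count was 1 for Eed-MADM at P0 against E16.5, 1 for yellow cKO-Eed-MADM, and 0 for green against red and for green against yellow cells of Eed-MADM. Under the block Hoxb13 of Eed-MADM against control-MADM at E13.5 turned to -1.78, since too few libraries share a number there. Depth limits the anterior members most: Hoxb1 had 91 reads over all 92 libraries and Hoxb3 217, where Hoxb13 had 13936.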

Other observations

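The genes outside the Hox clusters whose log2(CPM + 1) followed the summed HoxB level most closely over the 92 libraries, out of 16074 compared, were Vax2 (Pearson r = 0.908), Pax2 (0.895), Cdkn2a (0.888), Lbx1 (0.883) and Cdkn2b (0.875), which lie on chromosomes 6, 19, 4, 19 and 4. The points share genotype, age and library, and the values are a description. Vax2, a homeobox gene of the ventral eye, had no read in green control-MADM cells at either late age, but in cKO-Eed-MADM 94.9 ± 34.9 CPM (SD, n = 4) by E16.5 and 65.1 ± 14.6 (n = 4) in newborns. Its level in Eed-MADM was 4.83 ± 3.81 CPM (n = 5) at the former age and 8.86 ± 3.78 (n = 9) at the latter. Pax2, a paired box gene of the midbrain and hindbrain border, had 41.2 ± 2.43 CPM there by E16.5 and 17.8 ± 2.67 in newborns. Lbx1, a homeobox gene of the dorsal spinal cord, went from 69.2 ± 21.2 CPM to 15.1 ± 7.30. Cdkn2a and Cdkn2b, neighbouring inhibitors of cell cycle kinases, rose in point value instead, from 19.1 ± 9.14 to 31.5 ± 12.8 and from 19.8 ± 3.69 to 42.0 ± 4.85 CPM, where the summed HoxB level went from 418 ± 109 to 247 ± 59.0. The ages were not tested against each other for these 5 genes.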
